A study of Mus musculus with 27 samples.

Results

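Ins1, Ins2 and Iapp are the 3 genes described here: the mouse insulin genes and the gene for amylin. They were found by symbol, and all 3 had a row in each of the 3 gene count tables of the series, among 55536 rows for embryonic pancreas, 26487 for islets and 39017 for neural progenitors. The series holds 27 mouse samples in 11 groups, made to compare wild-type Nkx2.2 with Nkx2.2 carrying a mutation of its SD domain. Whole pancreata at E15.5, an embryonic stage, came from controls (n = 3), which the series' design text calls wildtype, and from Nkx2.2SDmut animals (SDmut, n = 4). Islets at 8 weeks came from controls (n = 2) and from mice with the SD mutation limited to beta cells (betaSDmut, n = 3). Islets at 4 weeks came from controls (n = 2) and from mice with a beta-cell knockout of Nkx2.2 (betaKO, n = 2). Motor neuron progenitors made from mouse embryonic stem cells, at day 4 of differentiation, received no transgene induction (pMN, n = 3) or 1 µg/ml doxycycline for 16 h to express FLAG-tagged wild-type Nkx2.2 (iNkx2.2, n = 3) or the FLAG-tagged SD mutant (iSDmut, n = 2). Nkx2.2 binding was mapped by ChIP-seq in MIN6 cells, an established mouse beta-cell line (2 replicates). The Cre driver, the control genotypes of the islets, strain, sex and pooling of animals are not given in the sources used here. Nothing states that replicates are separate animals, so p-values measure only the spread between these samples.

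Insulin is made by pancreatic beta cells from a larger precursor that is cut by prohormone convertases and stored in granules with zinc. Mice carry a pair of insulin genes. Ins2 has the exon structure shared with other mammals, and Ins1 is a retroposed copy of it. Iapp encodes the precursor of amylin, which beta cells store and release together with insulin. Nkx2.2 is a homeodomain transcription factor of the NK2 family, needed for beta-cell formation in the embryo, and its SD domain (NK2-specific domain) is a short conserved stretch outside the homeodomain.

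In the RefSeq annotation of GRCm38.p6, the build that the labels name as mm10, Ins1 lies on chromosome 19 at 52264297 to 52265015 on the plus strand and Ins2 on chromosome 7 at 142678656 to 142679726 on the minus strand. Iapp lies on chromosome 6 at 142298425 to 142303820 on the plus strand. The RefSeq bases before the start sites of Ins1 and Iapp are shown because ChIP events fall in both. The window around the Iapp upstream event is shown because it held the most reads of any event near the 3 genes. ChIP events also fall just before the Ins2 start. The promoter sequences used here held no Ins2 entry, so the Ins2 promoter was neither shown nor searched. All sequences shown are on the plus strand. Capitals mark AAGTG, the core letters bound by Nkx2.2 and its NK2 relatives, or CACTT, the same letters on the other strand.
Ins1 promoter, chr19:52264047-52264296: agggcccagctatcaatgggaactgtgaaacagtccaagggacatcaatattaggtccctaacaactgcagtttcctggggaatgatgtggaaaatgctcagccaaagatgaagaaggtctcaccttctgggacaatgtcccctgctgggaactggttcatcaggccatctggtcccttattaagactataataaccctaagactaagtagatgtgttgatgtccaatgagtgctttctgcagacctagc
Iapp promoter, chr6:142298175-142298424: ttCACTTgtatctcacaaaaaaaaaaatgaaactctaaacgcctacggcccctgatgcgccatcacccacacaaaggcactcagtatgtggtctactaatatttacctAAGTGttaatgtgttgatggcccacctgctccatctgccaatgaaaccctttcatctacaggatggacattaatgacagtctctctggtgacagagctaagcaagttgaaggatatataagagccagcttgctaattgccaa
Iapp upstream event, chr6:142289442-142289642: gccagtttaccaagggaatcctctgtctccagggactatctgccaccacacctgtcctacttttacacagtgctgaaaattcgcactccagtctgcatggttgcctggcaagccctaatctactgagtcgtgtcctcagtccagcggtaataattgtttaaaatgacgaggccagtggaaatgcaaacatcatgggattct
The Ins1 promoter of 250 bases and the upstream window held no AAGTG on either strand. The Iapp promoter held 2 matches, starting 248 and 142 bases before the start site. AAGTG occurred in 40.7% of 32851 RefSeq promoters of this length and in 40.7% of windows of 201 bp around the 6473 final ChIP sites. These letters are thus common in both backgrounds. The windows differ in length, so the 2 shares do not compare density.

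Libraries held 38447596 to 41840638 counts in embryonic pancreas, 12398041 to 32385406 in islets and 17757991 to 46840701 in progenitors. Levels are CPM, counts per 1000000 counts, scaled by TMM factors within each tissue and age, so a level set across tissues or ages is a description only. Nkx2-2 itself, the targeted gene, was at 91.3, 74.4 and 58.6 CPM in the E15.5 controls and 54.8, 55.5, 77.0 and 91.2 CPM in SDmut. It was at 102 and 88.1 CPM in 8-week controls and 102, 83.0 and 80.8 CPM in betaSDmut. It was at 104 and 77.0 CPM in 4-week controls and 94.0 and 65.4 CPM in the libraries labelled betaKO. The groups overlapped in all 3 comparisons, with log2 fold changes of -0.10, -0.10 and -0.18 in edgeR (adjusted p = 0.9998, 0.680 and 0.779). A count over the whole gene does not show a domain mutation, and which part the knockout deletes is not given in the sources used here. The gene count therefore checks neither genotype, and the 4-week mutants are called the libraries labelled betaKO throughout.

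In E15.5 pancreas both insulin genes were far lower in SDmut than in control, while Iapp was not separated. Control Ins1 stood at 227, 98.9 and 79.8 CPM (mean 135 ± 80.2 SD, n = 3), and SDmut Ins1 at 14.3, 11.2, 21.7 and 12.9 CPM (15.02 ± 4.61, n = 4). Every SDmut library lay below every control, and control 1 was the highest by more than the span of the other controls. Ins2 stood at 442, 195 and 154 CPM in controls (264 ± 156, n = 3) and at 11.7, 8.33, 14.6 and 11.5 CPM in SDmut (11.5 ± 2.57, n = 4). The Ins2 groups did not overlap either, and the gap between them was wider than for Ins1. Iapp, the gene for amylin, read 99.2, 47.8 and 33.4 CPM in controls (60.1 ± 34.6, n = 3) and 33.7, 21.4, 56.2 and 35.6 CPM in SDmut (36.7 ± 14.4, n = 4). Its groups overlapped, with 3 of the 4 SDmut libraries inside the control range. Of the 3 genes, 2 had all SDmut libraries below all controls, against 1.97% of the 18723 genes tested. Pancreas is a mixture of cell types, and in such bulk samples fewer beta cells and less insulin RNA per beta cell cannot be told apart.

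**Figure D1:**
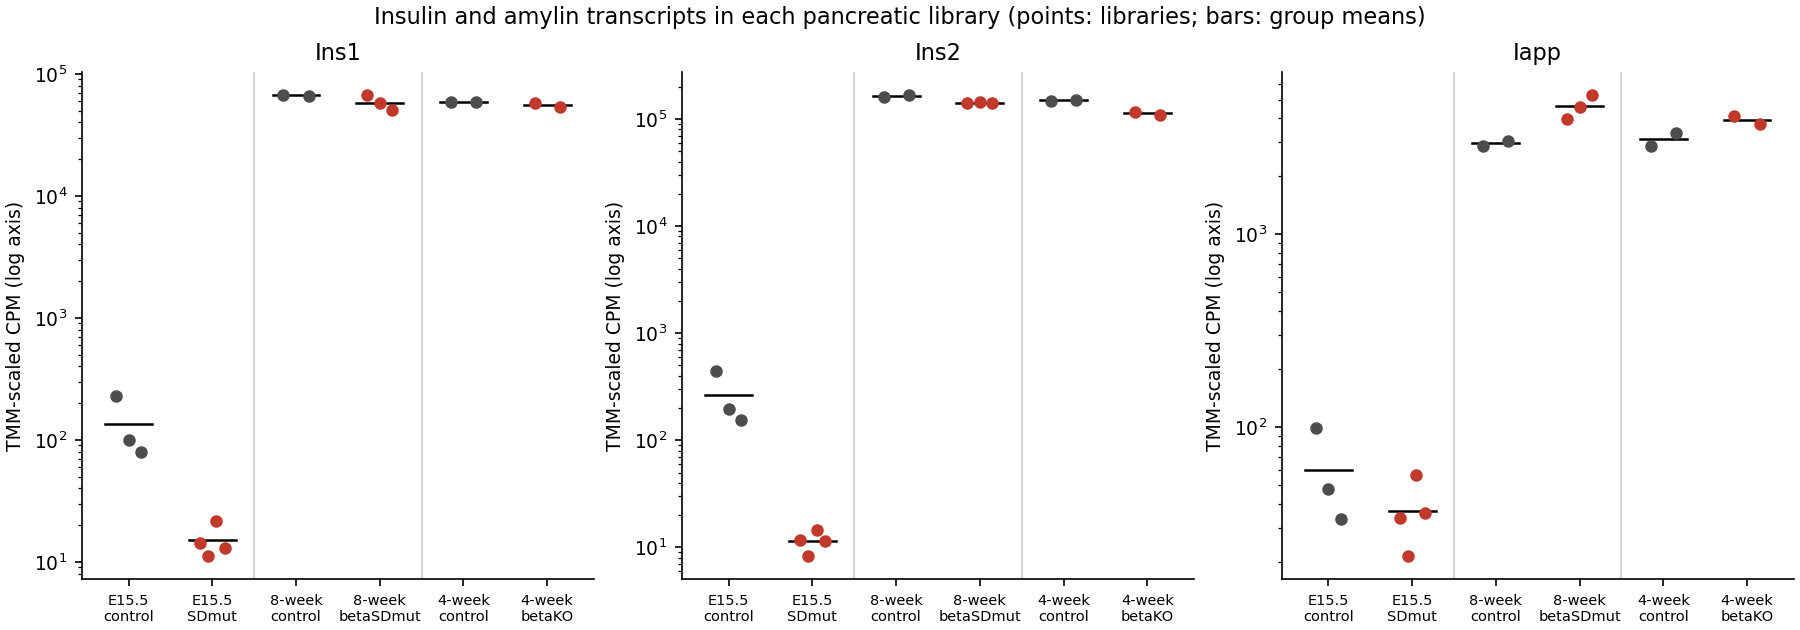
Level of Ins1, Ins2 and Iapp in each pancreatic library, in TMM-scaled CPM on a log axis; points are libraries, bars are group means, and grey lines separate tissues and ages that were scaled separately. Ins1 and Ins2 at E15.5 lie at 79.8 CPM or more in controls and at 21.7 CPM or less in SDmut, while no islet group departs from its controls by a comparable distance.

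The log2 fold change at E15.5 was -4.52 for Ins2 (SE 0.403, 95% interval -5.46 to -3.57) and -3.17 for Ins1 (SE 0.405, interval -4.12 to -2.23). With edgeR's quasi-likelihood test and Benjamini-Hochberg adjustment over all genes, neither passed 0.05: adjusted p was 0.0608 for Ins2 and 0.284 for Ins1, with unadjusted p of 6.50e-06 and 7.59e-05. The same test called 1 of 18723 genes (0.00534%), Gm4737, which was higher, and 475 genes were under 0.05 unadjusted (2.54%). DESeq2 called 28 of 23551 genes (0.119%), among them Ins2 (adjusted p = 1.39e-31) and Ins1 (adjusted p = 5.41e-13). Iapp had a log2 fold change of -0.71 (SE 0.426, interval -1.71 to 0.28), with an adjusted p of 0.9998 in edgeR. Its size rested on control 1, without which it was -0.14, and leaving out 1 library gave -0.999 to -0.14. The authors' deposited table, made with DESeq2, gave -4.40 for Ins2, -3.03 for Ins1 and -0.0014 for Iapp, and called 26 of 22966 genes (0.113%). The deposited Iapp value came with an SE of 0.0349 and an unadjusted p of 0.0943 (DESeq2). A value that small beside its SE would not give that p, so the deposited fold changes appear to be shrunk towards 0. They are not on the scale of the edgeR values here, and -0.0014 does not show that Iapp was unchanged.

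Single libraries bore on the Ins2 call. Without control 1 the log2 fold change was -3.92 and edgeR's adjusted p 0.0164, and without control 3 it was -4.79 with an adjusted p of 0.0364. The skeletal muscle list summed to 5589 CPM in control 3 and 6329 CPM in SDmut 2, against 14.7 to 72.5 CPM in the other 5 libraries, with none of its 9 genes at 0 in any. Leaving both libraries out gave -4.66 for Ins2, -3.32 for Ins1 and -0.81 for Iapp, an alternative chosen after seeing the data. The sample titles carry a number whose meaning is not given. Controls 1 and 2 share one with SDmut 1 and 2, and among these Ins2 was at 442 and 195 CPM in controls and 11.7 and 8.33 CPM in SDmut. Control 3 shares another with SDmut 3, at 154 and 14.6 CPM, and SDmut 4 stands alone. The gap in Ins2 was thus present within both numbers that hold both genotypes.

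The E15.5 SDmut libraries also stood apart from controls in the proportions among the 3 genes. A ratio of counts within 1 library needs no scaling factor. The Ins1 to Ins2 count ratio was 0.514, 0.506 and 0.520 in controls and 1.23, 1.34, 1.48 and 1.12 in SDmut. The controls were nearly equal, although control 1 held 9391 Ins1 counts and control 3 held 3079, and all 4 SDmut libraries were above them. The mean log2 ratio was higher by 1.33, or 2.51-fold (exact permutation test, two-sided, p = 0.0571, the smallest that 3 against 4 libraries allow; adjusted over 6 ratio tests, 0.171). The Iapp to Ins2 count ratio was 0.224, 0.244 and 0.217 in controls and 2.88, 2.57, 3.85 and 3.09 in SDmut. Again no SDmut library was near a control, and the mean log2 ratio was higher by 3.75, or 13.4-fold (exact permutation test, two-sided, p = 0.0571, the smallest possible; adjusted 0.171). Per kilobase of RefSeq exon (601 bp for Ins1, 481 bp for Ins2, 696 bp for Iapp), the control Ins1 to Ins2 ratio was 0.405 to 0.416, and the SDmut ratio 0.899 to 1.19. Per kilobase, Iapp was at 0.150 to 0.169 of Ins2 in controls and at 1.78 to 2.66 of Ins2 in SDmut. Ins2 was thus the most abundant of the 3 per length in control pancreas, and Iapp in SDmut pancreas. Ins1 and Ins2 are near-identical in their coding parts, and how reads fitting both were counted is not given, so the split between them is uncertain.

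**Figure D2:**
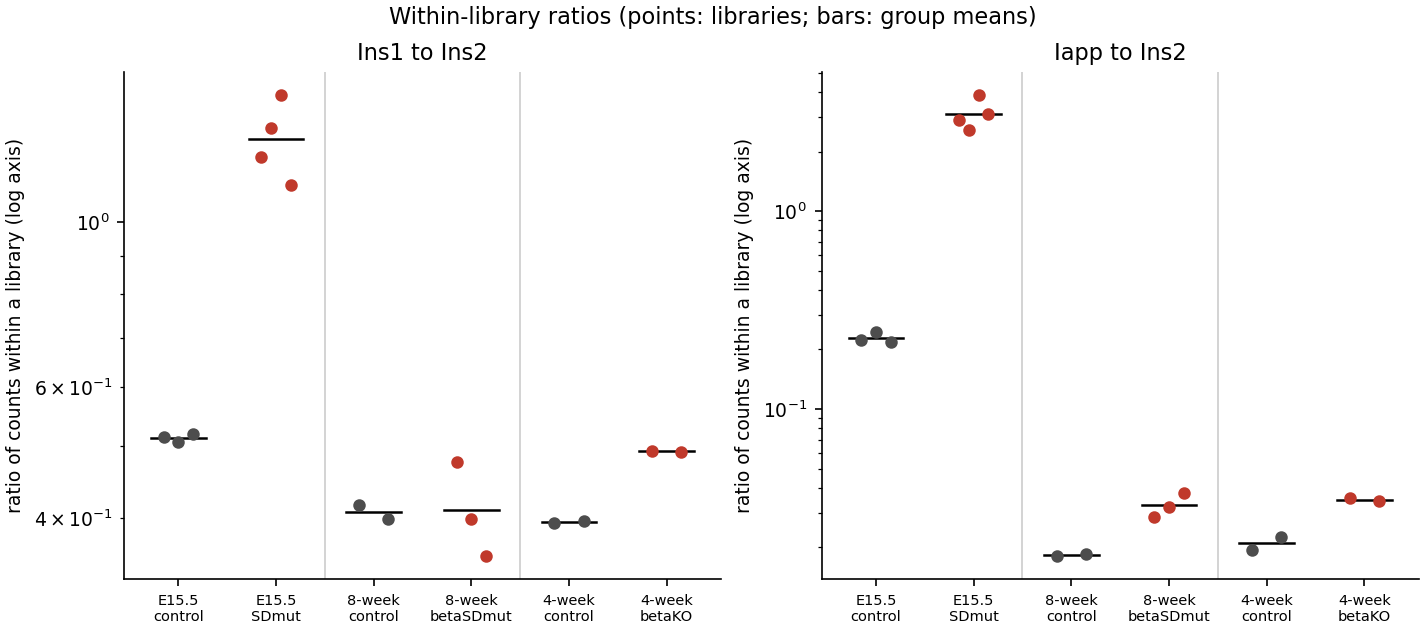
Ins1 to Ins2 (left) and Iapp to Ins2 (right) count ratios within each pancreatic library, on log axes; points are libraries and bars are group means. At E15.5 the SDmut libraries lie at 1.12 to 1.48 and 2.57 to 3.85, above controls at 0.506 to 0.520 and 0.217 to 0.244.

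In adult islets the insulin genes stood orders of magnitude above the embryonic level, and the beta-cell SD mutation came with small differences. Ins1 was at 66447 and 66312 CPM in 8-week controls and at 66650, 57438 and 50048 CPM in betaSDmut. The groups overlapped, because betaSDmut 1 was above both controls. Ins2 was at 159432 and 166187 CPM in controls and at 140058, 143765 and 140652 CPM in betaSDmut. All 3 betaSDmut libraries were below both controls, by an amount small against the level. Iapp was at 2886 and 3067 CPM in controls and at 3987, 4575 and 5273 CPM in betaSDmut, with every betaSDmut library above both controls. With so few libraries separation was common, since 23.3% of the 15413 genes tested had all betaSDmut libraries lower and 22.6% had all of them higher.

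The log2 fold change of Iapp at 8 weeks was 0.63 (SE 0.144, 95% interval 0.28 to 0.98), with an edgeR adjusted p of 0.0545. That of Ins2 was -0.20 (SE 0.106, interval -0.46 to 0.06; edgeR adjusted p = 0.290), and that of Ins1 -0.19 (SE 0.148, interval -0.56 to 0.17; edgeR adjusted p = 0.459). None of the 3 passed 0.05, where 1224 of 15413 genes did (7.94%). DESeq2 called Iapp (adjusted p = 5.43e-05) and Ins2 (adjusted p = 0.0234) among 1999 of 16946 genes (11.8%). Without betaSDmut 1, Iapp was at 0.73 with an edgeR adjusted p of 0.0108, and over the 13 alternatives run its value lay between 0.52 and 0.81 with 5 calls. The acinar list, whose 13 genes mark exocrine cells, summed to 701, 1404 and 6472 CPM in betaSDmut and to 7788 and 4835 CPM in controls, with no gene at 0. With that list as a covariate Iapp was at 0.81 (edgeR adjusted p = 0.0198), Ins2 at -0.21 and Ins1 at -0.40. The authors' deposited tables hold this comparison in a pair of versions: Iapp was at 0.62 (p = 0.00520) without a call in the first of the authors' deposited tables and at 0.59 (p = 7.64e-04) with a call in the second.

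In the 4-week libraries labelled betaKO, Ins2 was below and Iapp above control, and Ins1 differed little. Ins1 was at 58175 and 59200 CPM in controls and 57418 and 53515 CPM in the libraries labelled betaKO. These did not overlap, but betaKO 1 was close to control 1. Ins2 was at 147696 and 149532 CPM in controls and 116594 and 108868 CPM in the libraries labelled betaKO, a gap far wider than the span of either group. Iapp was at 2881 and 3371 CPM in controls and 4138 and 3729 CPM in the libraries labelled betaKO, and the lower of these was above the higher control. All 3 genes were thus separated, which with 2 libraries against 2 was also true of 24.3% of the 14942 genes tested in the lower direction and of 23.2% in the higher.

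The log2 fold change of Ins2 at 4 weeks was -0.40 (SE 0.119, 95% interval -0.69 to -0.10; edgeR unadjusted p = 0.0165, adjusted p = 0.205). That of Iapp was 0.33 (SE 0.127, interval 0.02 to 0.65; edgeR adjusted p = 0.306), and that of Ins1 -0.08 (SE 0.115, interval -0.37 to 0.20; edgeR adjusted p = 0.798). None of the 3 passed, where 233 of 14942 genes did (1.56%), and DESeq2 called Ins2 (adjusted p = 1.72e-05) among 798 of 15215 genes (5.24%). The authors' deposited table gave -0.46 for Ins2 (edgeR and limma, p = 0.00357), 0.37 for Iapp (p = 0.0191) and -0.17 for Ins1, and called none of the 3. This is the second of their tables described above, in which betaKO appears to share a control with betaSDmut. These values may therefore not be against the 4-week controls alone. The acinar list summed to 26416 and 8861 CPM in the libraries labelled betaKO and to 7004 and 3817 CPM in controls, with none of its 13 genes at 0. With that list as a covariate Ins2 was at -0.47, Iapp at 0.31 and Ins1 at -0.15, and no gene was called. Both libraries labelled betaKO had higher acinar sums than both controls. With 2 libraries a group the fit can hardly separate the list from the genotype, so the absence of calls says little.

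Within islet libraries the Iapp to Ins2 ratio lay above the controls in every library of both mutants, and the Ins1 to Ins2 ratio in the libraries labelled betaKO alone was separated from its controls. Iapp to Ins2 was 0.0181 and 0.0185 in 8-week controls and 0.0285, 0.0318 and 0.0375 in betaSDmut. This was 1.77-fold higher (exact permutation test, two-sided, p = 0.200, the smallest possible; adjusted 0.400), with all betaSDmut libraries above the controls. At 4 weeks it was 0.0195 and 0.0225 in controls and 0.0355 and 0.0343 in the libraries labelled betaKO. This was 1.66-fold higher, again without overlap (exact permutation test, two-sided, p = 0.333, the smallest possible; adjusted 0.400). The Ins1 to Ins2 ratio was 0.394 and 0.396 in 4-week controls and 0.492 and 0.492 in the libraries labelled betaKO, 1.25-fold higher (exact permutation test, two-sided, p = 0.333; adjusted 0.400). At 8 weeks it was 0.417 and 0.399 in controls and 0.476, 0.400 and 0.356 in betaSDmut, which spread to both sides of the controls. The mean log2 difference there was -0.00 (exact permutation test, two-sided, p = 1; adjusted 1), and whether the ratio responded differently to the mutation and the knockout was not tested.

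The embryonic and adult effects were compared in 1 edgeR model of the 16 pancreatic libraries over 22341 joined symbols. This model takes 1 spread per gene for embryonic pancreas and islets alike, although spread may differ between tissues and ages. Its adjusted p-values depend on that. In a fit of only the 4 groups compared, Ins1 was not called for E15.5 minus 8 weeks. The SDmut effect at E15.5 minus the betaSDmut effect at 8 weeks was -4.34 on the log2 scale for Ins2 (SE 0.563, 95% interval -5.56 to -3.12; edgeR adjusted p = 0.00330). For Ins1 it was -3.01 (SE 0.562, interval -4.22 to -1.79; edgeR adjusted p = 0.0227). Iapp was at -1.36 (SE 0.568, interval -2.60 to -0.13; edgeR unadjusted p = 0.0324, adjusted p = 0.369), and at -0.76 without E15.5 control 1, in a range of -1.67 to -0.76 without 1 library. So 2 of the 3 genes passed in the lower direction, where 151 of 15734 genes did (0.96%) and 215 in either direction (1.37%). DESeq2 called the same 2 among 586 of 14803 genes (3.96%). The Ins1 call was lost without 8-week control 1 (adjusted p = 0.150 in edgeR), without 8-week control 2 (adjusted p = 0.174) and without betaSDmut 2 (adjusted p = 0.0628), with values of -3.01 to -3.00. Ins2 was called in each of 21 alternatives, at -4.63 to -3.71. The embryonic samples were whole pancreas of Nkx2.2SDmut animals and the adult samples were islets with the mutation limited to beta cells, so age, tissue and the cells that carry the mutation cannot be told apart.

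Against the 4-week knockout effect, the E15.5 SDmut effect differed by -4.13 for Ins2 (SE 0.576, 95% interval -5.38 to -2.88; edgeR adjusted p = 0.0148). It differed by -3.10 for Ins1 (SE 0.583, interval -4.36 to -1.84; edgeR adjusted p = 0.0635) and by -1.05 for Iapp (SE 0.593, interval -2.33 to 0.24; edgeR adjusted p = 0.646). Without E15.5 control 1 the Iapp difference was -0.45, in a range of -1.36 to -0.45 without 1 library. So 1 of the 3 genes passed in the lower direction, where 28 of 15734 genes did (0.178%) and 36 in either direction (0.229%). DESeq2 called Ins2 and also Ins1 among 252 of 14445 genes (1.74%). The Ins2 call was lost without betaKO 2 (-4.18, edgeR adjusted p = 0.0624), without 4-week control 1 (-4.11, adjusted p = 0.0993) and without 4-week control 2 (-4.13, adjusted p = 0.138). Ins1 was called without E15.5 control 1 (-2.46, edgeR adjusted p = 0.0357), without E15.5 control 3 (-3.38, adjusted p = 0.0322) and without SDmut 3 (-3.36, adjusted p = 0.0471). These 2 sets of differences share the E15.5 libraries.

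No difference between the adult mutation and the adult knockout passed the test for any of the 3 genes. The betaSDmut effect minus the betaKO effect was -0.11 for Ins1 (SE 0.190, 95% interval -0.54 to 0.33; edgeR adjusted p = 0.861). It was 0.20 for Ins2 (SE 0.128, interval -0.09 to 0.49; edgeR adjusted p = 0.536) and 0.30 for Iapp (SE 0.197, interval -0.15 to 0.76; edgeR adjusted p = 0.544). These intervals leave room for differences of up to 0.76 for Iapp, and 194 of 15995 genes passed (1.21%). DESeq2 called none of the 3, and 663 of 15841 genes (4.19%). The direct contrast of betaKO with betaSDmut in the authors' deposited table, across ages, gave -0.33 for Ins2 (p = 0.0269), -0.22 for Iapp and -0.06 for Ins1, none called.

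**Figure D3:**
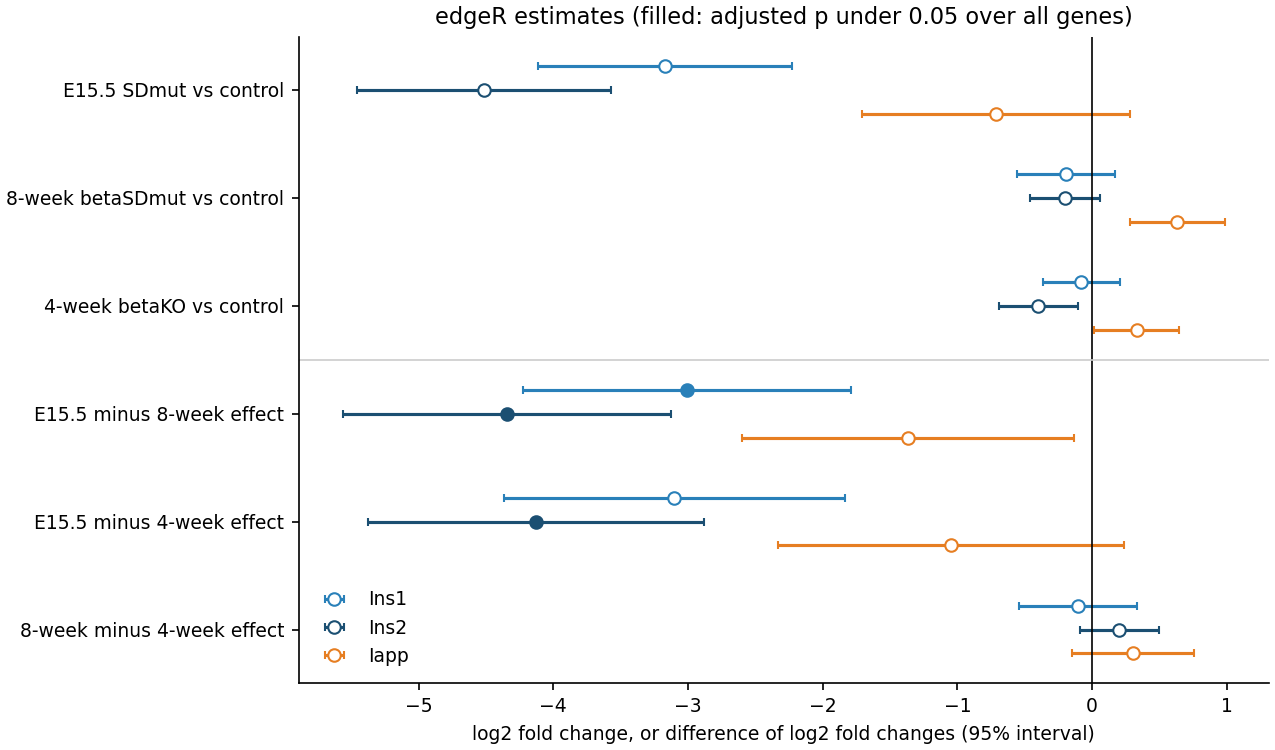
edgeR estimates with 95% intervals for Ins1, Ins2 and Iapp: log2 fold changes within each comparison above the line, and differences of log2 fold changes below it; filled circles have an adjusted p under 0.05 over all genes. The filled circles are Ins1 (-3.01) and Ins2 (-4.34) in E15.5 minus 8 weeks and Ins2 (-4.13) in E15.5 minus 4 weeks, and all intervals of the 2 adult effects lie between -0.69 and 0.98.

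The order of group levels was the same for both insulin genes. Ins1 averaged 66379 CPM in 8-week control, 58688 in 4-week control, 58046 in betaSDmut, 55467 in the libraries labelled betaKO, 135 in E15.5 control and 15.02 in SDmut. The ranges of the other 3 islet groups lay inside that of betaSDmut, so these were not separated from it. Ins2 averaged 162809 CPM in 8-week control, 148614 in 4-week control, 141492 in betaSDmut, 112731 in the libraries labelled betaKO, 264 in E15.5 control and 11.5 in SDmut. No neighbouring Ins2 groups overlapped in this order, but all neighbours except the E15.5 pair were scaled separately, so their separation is a description only. Mutants lay wholly below their own controls for 23.3% of all genes at 8 weeks, 24.3% at 4 weeks and 1.97% at E15.5. Iapp had another order: 4611 CPM in betaSDmut, 3934 in the libraries labelled betaKO, 3126 in 4-week control, 2977 in 8-week control, 60.1 in E15.5 control and 36.7 in SDmut. Both mutant islet groups overlapped each other, as did both control ages and both embryonic groups. In the neural progenitors the 8 libraries together held 1 count of Ins1, 0 of Ins2 and 4 of Iapp, with the Ins1 count in iNkx2.2 and the Iapp counts in pMN and iNkx2.2. No library reached the floor of 3 counts, none of the 3 genes was among the 15653 of 39017 that passed the filter on low counts, and no test was made. Nkx2-2 itself was at 343 to 378 CPM in iNkx2.2 and 245 to 248 in iSDmut against 5.40 to 11.6 in pMN, so both induced groups carried that transcript while no member reached the floor.

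The genes around insulin were described by lists. The regulators are transcription factors that act on the insulin genes or on beta-cell identity, such as Pdx1, Neurod1 and Mafa. At E15.5 none of 19 regulators was called by edgeR, and 3 were at unadjusted p under 0.05, as were 2.54% of all genes. The regulators had a median log2 fold change of -0.30 against 0.01 over all genes. Mafa, an activator of the insulin gene in mature beta cells, had the lowest value of them at -2.12 (SE 0.567, edgeR adjusted p = 0.9998), with 12.5 ± 4.22 CPM in controls and 2.89 ± 2.38 CPM in SDmut. At 8 weeks 1 of 18 regulators rose in betaSDmut and 3 fell, where 4.07% of all genes rose and 3.87% fell, with a median of -0.02 against 0.01 over all genes. Isl1, a LIM-homeodomain factor of islet cells, rose by 0.98, and Nkx6-1, a homeodomain factor of beta cells, fell by 0.91 on the log2 scale (edgeR adjusted p = 0.00504 and 0.0174). St18 and Insm1 also fell, by 0.68 and 0.50, while Mafa was at -0.72 (edgeR adjusted p = 0.0820) and Pdx1 at 0.31 (adjusted p = 0.164). At 4 weeks none of 18 regulators was called by edgeR (7 at unadjusted p under 0.05, as were 15.2% of all genes; median 0.00, as over all genes), and Nkx6-1 was at -1.14 (edgeR adjusted p = 0.182).

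The list for processing and granules holds the convertases, chaperones and granule proteins that turn proinsulin and proamylin into stored hormone. At E15.5 none of its 18 genes was called by edgeR, and 3 were at unadjusted p under 0.05, as were 2.54% of all genes. The list median was -0.08 against 0.01 over all genes. Chga, a granule core protein, was at -1.46 (SE 0.290, edgeR adjusted p = 0.9998), and the zinc transporter Slc30a8 at -1.35 (SE 0.476, adjusted p = 0.9998). At 8 weeks 4 of 18 rose and 2 fell, against 4.07% and 3.87% of all genes, with a median of 0.12 against 0.01. Scg2, a granule protein, rose by 1.28, and Pam, the enzyme that amidates amylin, by 0.93, and Chgb and Scg3 were the other 2. Chga fell by 1.13 and Slc30a8, which loads zinc into insulin granules, by 1.12 (edgeR adjusted p = 0.00626 and 0.00953). The convertases Pcsk1 and Pcsk2 were at 0.07 and -0.46 without a call. At 4 weeks 1 of 18 rose, Pam by 0.73 (edgeR adjusted p = 0.0468), and none fell, where 0.81% of all genes rose and 0.75% fell. The median was 0.26 against -0.00, 14 of 18 were positive, and 12 were at unadjusted p under 0.05, as were 15.2% of all genes. Without a call, Scg2 averaged 5102 CPM in 4-week controls and 9011 CPM in the libraries labelled betaKO, and Slc30a8 1070 and 675 CPM. Chga did not repeat its 8-week fall, at 11166 and 11799 CPM. The receptor list for insulin and amylin had no call in edgeR among 8 genes at E15.5 or among 7 at 4 weeks. At E15.5 its median was -0.20, and 1 gene was at unadjusted p under 0.05, as were 2.54% of all genes. At 4 weeks its median was 0.02, and 2 genes were at unadjusted p under 0.05, as were 15.2% of all genes. At 8 weeks Ramp1, a partner protein of the amylin receptor, rose by 2.10 (edgeR adjusted p = 8.68e-04), and Igf1r fell by 0.84, with a median of -0.09 over 7 genes. Ramp1 averaged 5.13 CPM in 4-week controls and 18.5 CPM in the libraries labelled betaKO, and Igf1r 83.0 and 100 CPM, neither with a call.

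The other islet hormones come from alpha, delta, PP and epsilon cells. At E15.5 none of 8 was called by edgeR (3 at unadjusted p under 0.05, as were 2.54% of all genes), with a median of -0.34. Gcg, made by alpha cells, was at -0.49, Sst, made by delta cells, at 0.57, Ppy, made by PP cells, at -1.22 and Ghrl, the gene for ghrelin, at 1.34, each with an edgeR adjusted p of 0.9998. At 8 weeks none of 7 was called by edgeR (2 at unadjusted p under 0.05, as were 25.7% of all genes; median 0.04), with Gcg at -0.44, Sst at 0.63, Ppy at 0.04 and Ghrl at -0.70. Ghrl was at -2.13 and called without betaSDmut 3 (edgeR adjusted p = 0.0335), and at -0.29 and -0.33 without betaSDmut 1 and 2. Its level was low, at 0.328 to 2.25 CPM in betaSDmut and 1.37 to 1.90 CPM in 8-week controls, so that call carries little weight. Sst lay at 0.36 without 8-week control 2 and at 0.96 without control 1, with no call. At 4 weeks 3 of 6 rose: Npy by 3.69, Ppy by 1.47 and Gcg by 1.06 (edgeR adjusted p = 0.0147, 0.0255 and 0.0484), where 0.81% of all genes rose. Sst was at 0.97 and Ghrl at 1.80 without a call, and the list median was 1.42 against -0.00. Ghrl was called without betaKO 1 (1.34, edgeR adjusted p = 0.0400) and without betaKO 2 (2.14, adjusted p = 0.0251), and Sst lay at 0.59 to 1.49 without 1 library. The other hormones together were at 63646 to 79629 CPM in the libraries labelled betaKO and 30657 to 36376 CPM in controls. They move with the lower Ins2 level there, and their part in it was not tested.

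**Figure D4:**
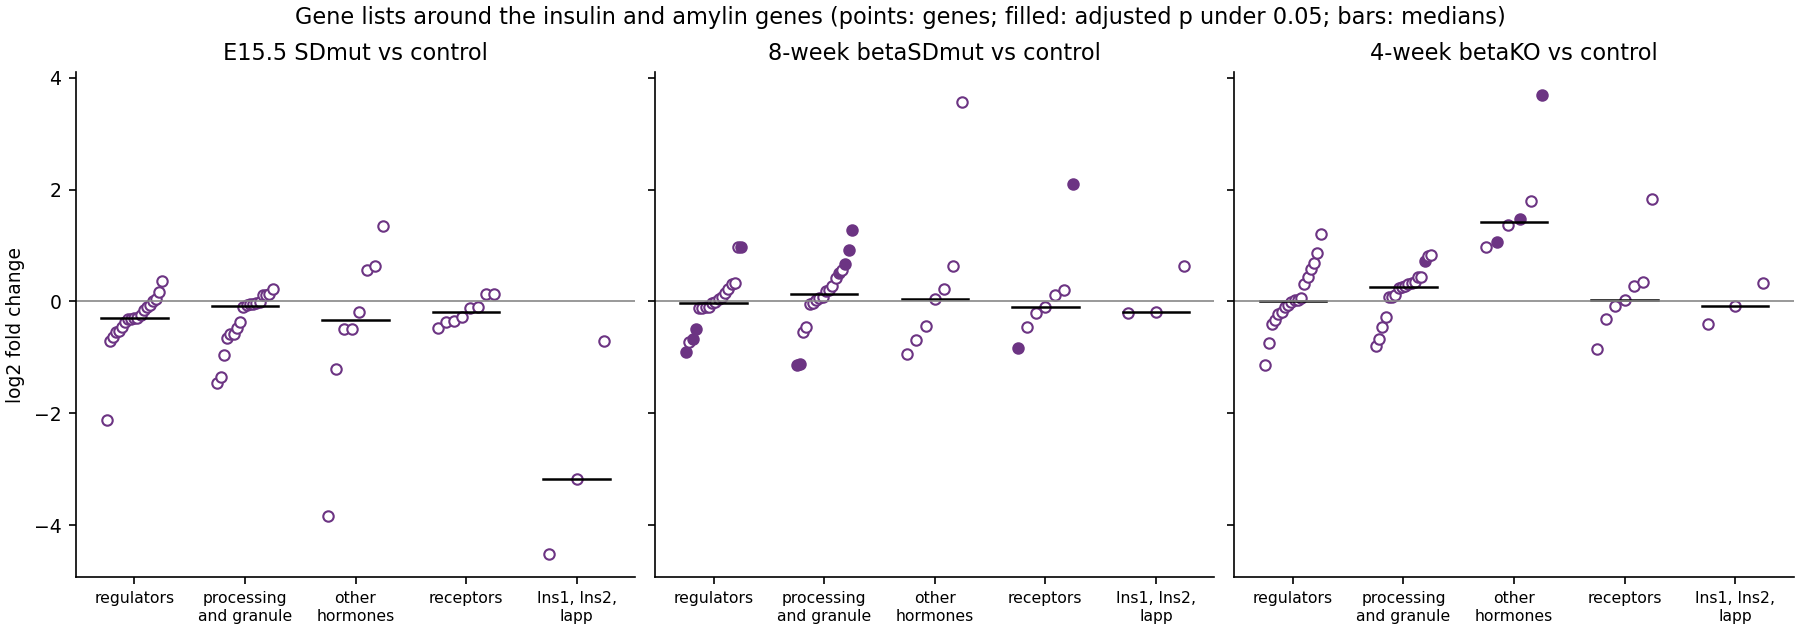
log2 fold changes of the genes of 4 lists and of Ins1, Ins2 and Iapp in each comparison; points are genes, filled where the adjusted p over all genes is under 0.05, and bars are medians. At E15.5 Ins2 (-4.52) and Ins1 (-3.17) lie below the list medians of -0.34 to -0.08, and at 4 weeks the hormone list has a median of 1.42.

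These list calls rest on few libraries. Without 8-week control 1 or control 2, edgeR called 45 and 37 genes in place of 1224, and of the list genes with values given at 8 weeks Ramp1 stayed called, at 2.04 to 2.16 without 1 library. Without betaSDmut 1 it called 2765, and without betaSDmut 2 it called 384. Without 4-week control 1 or control 2, edgeR called 4 and 15 genes in place of 233, without betaKO 2 it called 61, and without betaKO 1 it called 478. The Gcg, Ppy and Pam calls were lost without either 4-week control (edgeR adjusted p = 0.375 and 0.518 for Gcg, 0.169 and 0.193 for Ppy, 0.214 and 0.272 for Pam). Gcg was lost also without betaKO 2 (adjusted p = 0.0626), and Pam without betaKO 1 or betaKO 2 (0.0697 and 0.0705). With total library size Pam had an adjusted p of 0.0695, and with library sizes that leave out the 3 genes Gcg had 0.0514, both in edgeR. The acinar list had no call in edgeR in any comparison, with medians of 0.43, -1.13 and 1.75 at E15.5, 8 weeks and 4 weeks. At unadjusted p under 0.05 were 0, 0 and 3 of its genes, and 2.54%, 25.7% and 15.2% of all genes. Among the 6 other marker lists, for ductal, endothelial, mesenchymal, immune, skeletal muscle and neural cells, edgeR made no call at E15.5. At 8 weeks 4.07% of all genes rose and 3.87% fell, with a median of 0.01. Of 6 mesenchymal genes Vim rose and none fell by the test, but the other 5 had negative values, the median was -0.88, and the list summed to 103 to 151 CPM in betaSDmut and 179 to 223 CPM in controls. Of 4 immune genes Emr1 and Csf1r fell (median -0.93), and of 7 ductal genes Krt7 fell (median -0.32). Of 3 skeletal muscle genes tested, from a list of 9, Actn2 and Acta1 rose (median 1.41). Of 3 neural genes tested, from a list of 8, Mnx1 rose and Olig1 fell (median -0.25). Mnx1 averaged 14.3 CPM in control islets and 22.9 CPM in betaSDmut. Its transcript was thus present in control islets, and its rise does not show neural cells. Actn2 and Olig1 were low: Actn2 averaged 0.202 CPM in controls and 6.86 CPM in betaSDmut, and Olig1 0.810 and 0.014 CPM. Both genes passed the filter on low counts only through the group where they were higher, so these 2 calls carry little weight. None of 5 endothelial genes was called (0 at unadjusted p under 0.05 in edgeR; median -0.11). At 4 weeks 0.81% of all genes rose, among them Col1a1 and Col3a1 of the 6 mesenchymal genes (median 0.09). That list summed to 300 to 367 CPM in the libraries labelled betaKO and 184 to 208 CPM in controls. The gap lay largely in these 2 genes. In the same order Col3a1 averaged 212 and 106 CPM, Col1a1 57.0 and 22.2 CPM, and Vim 20.8 and 19.2 CPM. The other lists had no call. Of 5 endothelial and 4 immune genes 0 had positive values (medians -0.43 and -0.91). Of 7 ductal genes 6 did (median 0.48). At unadjusted p under 0.05 in edgeR were 3, 1 and 2 of these, and 15.2% of all genes. The part of these cell types in the insulin and amylin values was not tested beyond the covariates given above.

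Likeness was measured by Pearson's r of log2 CPM across libraries, as a description in which the libraries share depth and tissue composition. Controls and mutants are pooled in it, so r also carries the differences between groups given above. Over the 7 embryonic libraries and 12413 genes, Ins1 and Ins2 were each other's nearest gene at 0.993. Next to Ins1 came Chga at 0.980 and Tle1 at 0.979, and next to Ins2 came Meis2 at 0.983 and Commd7 at 0.979. Iapp was not among them: it stood at 0.728 to Ins1 and 0.658 to Ins2, although within controls the Iapp to Ins2 count ratio stayed at 0.217 to 0.244. Its nearest genes were Pyy, the peptide YY gene, at 0.995, Cltrn at 0.981 and Ptprn2 at 0.979. Over the 9 islet libraries and 11544 genes the pair was looser, with Ins1 and Ins2 at 0.617. There Iapp ran opposite to both, at -0.52 to Ins1 and -0.35 to Ins2. The nearest genes were Gne (0.972), Ssx2ip (0.970) and Eea1 (0.969) for Ins1, and Eaf1 (0.966), Fam117a (0.963) and Ptpn11 (0.963) for Ins2. For Iapp they were Tmem59 (0.987), 2610015P09Rik (0.973) and Gcnt2 (0.962).

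In MIN6 cells Nkx2.2 events lay close to all 3 genes. The authors' deposited list holds 10749 events called by GEM, with read counts in 500 bp, and 6473 of them form the final set. Within 50000 bp of the start site, Ins1 had 4 events (3 final), Ins2 had 3 (1 final) and Iapp had 5 (3 final). Within 1000 bp they had 2, 3 and 2. Of 17492 protein-coding genes, 2.84% had at least 1 event that close to a start, 0.417% had 2 or more, and 2.49% had a final site. Events closer than the counted width share reads, so neighbouring events are not separate measurements. Input DNA is not used here, so no enrichment is given, and events were measured in a cell line and not in the embryonic or islet samples.

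The Ins1 promoter printed above held the highest event within 1000 bp of any of the 3 starts. It lay 9 bp upstream, with 197 and 151 counts (182 and 184 CPM over events), rank 891, above 91.7% of events, and was in the final set. A second event 253 bp upstream, with 191 and 148 counts, was not final. The final events at 11907 bp upstream and 36794 bp downstream were lower, at 73 and 68 counts and 79 and 55 counts. Ins2 had no event of that height: 109 and 91 counts at 141 bp upstream (rank 2601), 92 and 79 counts at 4 bp inside the first exon, and 102 and 74 counts at 736 bp upstream (rank 3364). The last of these alone was final. Near Iapp the highest event was the upstream one printed above, 8883 bp before the start site and inside the Slco1a5 gene model, with 260 and 186 counts, rank 569. A neighbour 8364 bp upstream had 188 and 139 counts and was not final. The final event in the printed Iapp promoter, 169 bp upstream, had 96 and 76 counts, and those at 560 and 16286 bp upstream had 73 and 68 and 100 and 70 counts, the latter final. The authors' deposited table of bound genes joined Ins1 to the event at 9 bp and Iapp to that at 8883 bp, and had no row for Ins2. Ins2, with the largest embryonic difference of the 3, had the lowest maximum event height. Whether event height in MIN6 cells goes with the embryonic difference was not tested.

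**Figure D5:**
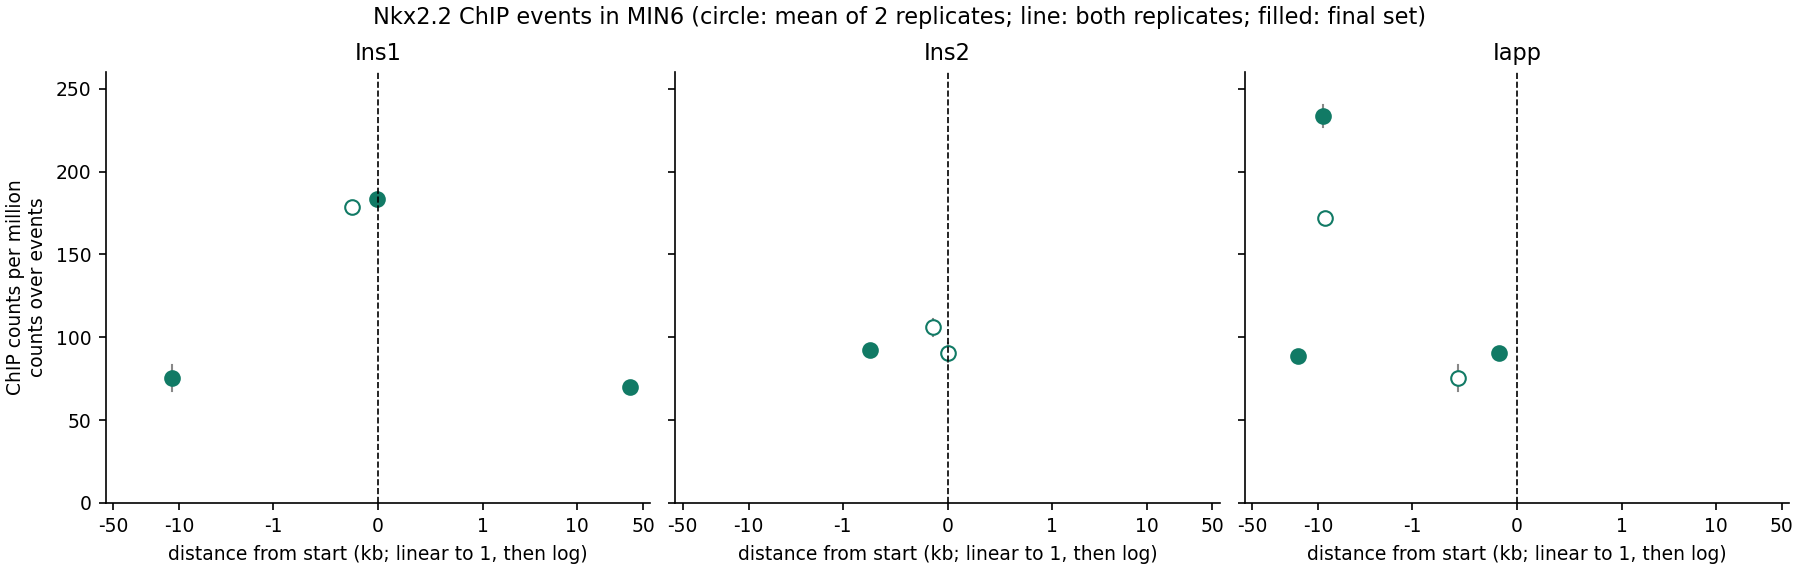
Nkx2.2 ChIP events around the start sites of Ins1, Ins2 and Iapp in MIN6 cells: distance in kb (negative upstream; linear to 1 kb, then log) against CPM over events; circles are means of 2 replicates, short lines join the replicates, and filled circles are in the final set. The highest are the Iapp event 8883 bp upstream (240 and 227) and the Ins1 event 9 bp upstream (182 and 184), and no Ins2 event exceeds 111 in either replicate.

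Counting error was small beside the spread between libraries. The lowest embryonic count of the 3 genes, 352 for Ins2 in SDmut 2, has an exact Poisson 95% interval of 316 to 391, which covers counting error only. Slco1a5, whose gene model spans Iapp on the other strand, had 0 to 3 counts at E15.5, where Iapp had 906 to 4099, and 34 to 251 in islets, where Iapp had 47170 to 145611. Use of strand is not given in the sources used here, so reads from the overlap cannot be told apart. The authors' deposited FPKM table listed Ins2 at 0 in 9 of 9 islet libraries and Ins1 at 0 in 8 of 9, although the count table of the same libraries held 1377045 to 4899506 Ins2 counts. Iapp FPKM ran from 47516 to 87886 in the authors' deposited table, so FPKM was not used for the insulin genes.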

How the data were processed

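RNA was counted per gene in 16 pancreatic and 8 progenitor libraries. The deposited read counts are raw, according to the readme deposited by the authors. Reads were aligned with STAR to mm10, per the submitters' processing notes, and the counter and strand use are not given in the sources used here. The authors' log2 fold changes and p-values are deposited as tables, from DESeq2 at E15.5 by their column names and from edgeR 3.20.9 with limma 3.34.9 for islets per the submitters' processing notes. Cufflinks, named in the same notes, is taken as the source of the deposited FPKM values. ChIP tables hold deposited counts at GEM events and the authors' log2 CPM of final sites. Deposited normalized E15.5 counts were not used, and 1 value column named for another factor was left out. The 4-week islets are labelled genomic DNA, although their columns hold gene counts.

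Each comparison was fitted on the libraries of its own groups, and differences of effects in 1 model, by robust quasi-likelihood in edgeR 4.0.16 under R 4.3.3. TMM factors, filterByExpr and Benjamini-Hochberg adjustment at 0.05 were used; SE is the log2 fold change over the square root of F. Ratios had 0.5 added to each count. Alternatives were DESeq2 1.42.0, RLE factors, total library size, library sizes without the 3 genes, other filters, covariates, blocks and leaving out libraries. Fits were tested on simulated data. No 2 libraries were identical.

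The 3 genes and the 11 lists (105 genes) were chosen with earlier results of these data known. Named by rule were the 3 genes, Nkx2-2, Gcg, Sst, Ppy and Ghrl, up to 4 called genes a list, the 3 most alike genes (mean log2 CPM at least 2) and all ChIP events within 50000 bp. Uncalled list genes given with values, Chgb, Scg3 and Gm4737 were named after their values were seen.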

Additional observations from a re-analysis of the deposited data

Results flagged for a closer look

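Each result here differed between comparisons in a test of the difference itself (edgeR, adjusted p under 0.05 over all genes). Among the 3 genes, the E15.5 SDmut effect minus the 8-week betaSDmut effect was -3.01 for Ins1 and -4.34 for Ins2, and minus the 4-week effect of the libraries labelled betaKO it was -4.13 for Ins2.

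For E15.5 minus 8 weeks, Chgb, a granule protein, stood at -1.64 (edgeR adjusted p = 0.0308), and the call was lost without E15.5 control 1 or 2, betaSDmut 2 or 3, or either 8-week control (adjusted p up to 0.218 in edgeR) and in the fit of the 4 groups alone (0.0696). Pam, the amidating enzyme, stood at -0.98 (edgeR adjusted p = 0.0430), and the call was lost without any 1 of 9 libraries: E15.5 control 1 or 2, SDmut 1, 2 or 4, betaSDmut 2 or 3, or either 8-week control (adjusted p up to 0.253 in edgeR) and in the fit of the 4 groups alone (0.0891). For E15.5 minus 4 weeks, Npy, a neuropeptide, stood at -7.52 (edgeR adjusted p = 0.0198). The call was lost without betaKO 2 or either 4-week control, and in the fit of the 4 groups alone (edgeR adjusted p = 0.108). Npy was low and variable at E15.5, at 2.77 to 25.5 CPM in controls and 0.441 to 1.73 CPM in SDmut. It averaged 8.38 CPM in 4-week controls and 107 CPM in the libraries labelled betaKO.

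For 8 minus 4 weeks, Npy stood at -4.62 (edgeR adjusted p = 0.0113), lost without either 4-week control or 8-week control 2 (adjusted p up to 0.0856 in edgeR). Chga stood at -1.20 (edgeR adjusted p = 0.0243), lost without any of the 4 controls or betaSDmut 2 (adjusted p up to 0.149 in edgeR), with the acinar covariate (0.0767) and with the replicate block (0.104). Igf1r, the receptor of insulin-like growth factor, stood at -1.11 (edgeR adjusted p = 0.0243), lost without any of the 4 controls, betaSDmut 2 or betaKO 2 (adjusted p up to 0.149 in edgeR). Ppy stood at -1.43 (edgeR adjusted p = 0.0468), lost without any of the 4 controls, either betaKO library or betaSDmut 2 (adjusted p up to 0.186 in edgeR), with the acinar covariate (0.164) and with the replicate block (0.0635). Dixon's criterion marked no library in 10 tests in the E15.5 SDmut group, of the 3 genes, Nkx2-2, Gcg, Sst, Ppy, Ghrl and both ratios.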

How the results depend on the processing

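The direction of Ins1, Ins2 and Iapp held in each E15.5, 8-week and 4-week alternative run. Groups held 2 to 4 libraries. At E15.5, Ins1 was called with DESeq2 (-3.17), and Ins2 with DESeq2 (-4.51), total library size (-4.52), at least 10 counts in every library (-4.52) and the muscle covariate (-4.45); leaving out 1 library gave Ins2 -4.79 to -3.92. The E15.5 count of 1 gene became 28 with DESeq2, 2 with total library size, 2 with the stricter filter, 4 with the muscle covariate and 0 with the title number as a block, and 0 to 2 without 1 library. At 8 weeks Ins2 was called with DESeq2 (-0.19), and Iapp with DESeq2 (0.64), total library size (0.72), no filter (0.64) and the acinar covariate (0.81), and leaving out 1 library gave Iapp 0.53 to 0.73. The 8-week count of 1224 became 1999 with DESeq2 and 37 to 2765 without 1 library. At 4 weeks Ins2 was called with DESeq2 (-0.40), and the count of 233 became 798 with DESeq2, 124 with total library size, 372 with no filter, 0 with the acinar covariate and 4 to 478 without 1 library.

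For 8 minus 4 weeks, Ins1 turned to 0.062 with total library size, and the count of 194 became 663 with DESeq2, 116 with the acinar covariate and 0 to 343 without 1 library. For E15.5 minus 8 weeks, Ins1 was not called in a fit of the 4 groups (-2.98, edgeR adjusted p = 0.0547) and lay at -3.29 to -2.37 without 1 library; the count of 215 became 586 with DESeq2, 366 with the muscle covariate, 121 in the fit of 4 groups and 39 to 344 without 1 library. For E15.5 minus 4 weeks, Ins1 was called with DESeq2 (-3.08), total library size (-3.00), the stricter filter (-3.10), the muscle covariate (-2.99) and without E15.5 control 3 and SDmut 2 (-3.25), and lay at -3.38 to -2.46 without 1 library. Ins2 was not called in the fit of 4 groups (-4.07) and lay at -4.41 to -3.50 without 1 library. The count of 36 became 252 with DESeq2, 92 with the muscle covariate, 55 without those 2 libraries, 3 in the fit of 4 groups and 5 to 72 without 1 library. The cause of these changes was not tested.

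The 8-week Ins1 to Ins2 log2 ratio lay at -0.11 to 0.10 without 1 library. Values that changed sign without 1 library were Nkx2-2 at E15.5 (-0.26 to 0.066), 8 weeks (-0.21 to 0.011) and 4 weeks (-0.47 to 0.053), Gcg at E15.5 (-0.79 to 0.25) and Ppy at 8 weeks (-0.062 to 0.21). Ghrl at 8 weeks was at 0.13 with the acinar covariate and at -2.13 without betaSDmut 3. With the replicate number as a block, the 8-week values were -0.10 for Ins1, -0.20 for Ins2 and 0.52 for Iapp, Ppy turned to -0.092 and 757 genes were called; the 4-week values were -0.08, -0.40 and 0.33, and 87 genes were called for 8 minus 4 weeks. The labels do not say that a number marks a shared source, and same-numbered libraries did not deviate together (r of -0.13 to -0.04), so pairing was not assumed. The progenitor alternatives were not run, since none of the 3 genes passed the filter.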
